A study of Mus with 50 samples.

Results

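The genes described here are 10 genes read as signs of p53 activity and of growth arrest: Cdkn1a, which encodes the cyclin-dependent kinase inhibitor p21, the p53 targets Btg2, Ccng1, Mdm2, Bax, Plk2, Phlda3, Trp53inp1 and Eda2r, and Cdkn2a, the locus of p16Ink4a and p19Arf. Each was read from the probe set that carries its symbol alone, taking the one with the highest median where there were several, and each measured gene had 1 such probe set. Of the 10 listed genes 9 were measured in this way, among 22180 named genes on the array, and Bax was not analysed here. The choice of genes did not use their levels, but it was made with earlier results of these data known.

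The samples were livers of 50 female mice, with 1 array for each liver. Each mouse came from a backcross of C57 and FVB and carried the transgene MMTV-Neu, whose mammary tumour virus promoter directs the Neu oncogene mainly to mammary epithelium, and each had breast cancer as its labelled comorbidity. The mice were taken from the ends of a grade of ageing that came from a multivariate model, and the labels do not say at which end any mouse lay. All 50 therefore formed a single group, and the comparisons below are of genes with one another over the mice. The mice are called by their animal numbers. Neither the ages nor the hour of collection nor the feeding state are given in the labels. The general extraction protocol speaks of purified cell populations, whereas the sample label is liver, and the mean log2 level of 10 hepatocyte markers lay between 10.77 and 12.32 in every mouse. In whole tissue, fewer cells of a type and less RNA per cell cannot be told apart.

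The transcription factor p53 is stabilised by DNA damage, oncogene activity and other stresses, and it activates genes that halt the cell cycle, repair DNA or cause cell death. Its target Mdm2 encodes the ubiquitin ligase that marks p53 for destruction, which closes a feedback loop. p21 binds cyclin-dependent kinases and holds cells before DNA replication, and it is used with p16 as a marker of senescent cells in ageing liver. Cdkn1a is not controlled by p53 alone: in hepatocytes it also responds to glucocorticoids, to FoxO factors during fasting and to the circadian clock.

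The values were log2 signals. In 4 mice, animals 64, 84, 87 and 235, the median correlation with the other livers was far below the rest, by over 3 interquartile ranges from the lower quartile. Another 10 mice lay as far above the upper quartile on the mean of a marker list of a cell type other than hepatocytes, most often pancreatic acinar cells (6 mice). The first principal component over the genes held 25.8% of the variance. Results that rest on such mice are given with and without them.

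Cdkn1a and Btg2 were the most variable members. The Cdkn1a signal ran from 5.09 in animal 60 through a median of 7.70 to 9.43 in animal 87, a 20.3-fold range. The SD over the 50 livers was 1.0, against a median SD of 0.28 among the 1000 genes of nearest median level, and 98.5% of those genes had a smaller SD than Cdkn1a. The middle 80% of mice lay between 6.45 and 8.83. No member fell into separate clusters by a mixture of 2 normal distributions. The rule for clusters was strict, so failing it does not show that a spread was continuous. The spread of Cdkn1a did not come from the mice that stood apart, since its SD without them was also 1.0. The medians of Cdkn1a in 4 stretches of animal numbers (7 to 79, 84 to 128, 137 to 235 and 253 to 301, with 8, 13, 16 and 13 mice) were 7.73, 7.51, 7.74 and 7.66.

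Btg2 encodes an antiproliferative protein that joins the CCR4-NOT deadenylase, and it is induced early by p53 and by growth signals. Its signal ran from 3.61, again in animal 60, through a median of 5.67 to 8.79 in animal 257, a 36.4-fold range with an SD of 1.13. Among genes of like level 99.3% had a smaller SD. Animal 87, the highest for Cdkn1a, was the next highest for Btg2 at 8.26.

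Trp53inp1, a nuclear and autophagy protein that promotes p53 phosphorylation, ranged from 7.65 in animal 64 through a median of 8.43 to 9.84 in animal 91. Its SD was 0.45, larger than that of 73.3% of genes of like level. The lowest values were those of animals 64 and 235 (7.70), both among the mice that stood apart, and the highest after animal 91 was animal 257 at 9.77.

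Ccng1, which encodes cyclin G1, a partner of protein phosphatase 2A that regulates Mdm2, ranged from 7.16 in animal 142 through a median of 7.82 to 9.33 in animal 64. Animals 64 and 84 (8.67) were its 2 highest mice, and without the 4 mice that stood apart the SD fell from 0.40 to 0.30. Mdm2 varied less, from 5.76 in animal 40 through a median of 6.46 to 6.90 in animal 128. Its SD of 0.25 exceeded that of only 37.6% of genes of like level.

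Plk2, a polo-like kinase that acts on centrioles, ranged from 5.03 in animal 179 through 5.99 to 6.74 in animal 87, with animal 84 next at 6.69 and an SD of 0.41. Phlda3, an inhibitor of Akt at the membrane, ranged from 3.90 in animal 40 through 4.23 to 4.74 in animal 64. Cdkn2a ranged from 3.69 in animal 292 through 4.11 to 4.57 in animal 96. Phlda3 (SD 0.18) and Cdkn2a (SD 0.19) moved least, with smaller SDs in 13.7% and 18.6% of genes of like level.

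Eda2r, the X-linked receptor for ectodysplasin A2, ranged from 2.43 in animal 91 through 2.79 to 3.68 in animal 64, and the next highest mouse was animal 270 at 3.44. Its level was close to background. The median levels of 1394 olfactory and vomeronasal receptor genes, which liver is not known to express, lay between 2.08 and 3.18 for their middle 90%, and Eda2r exceeded 3.18 in 4 of 50 mice. The other 8 measured members exceeded that level in all 50. Signals of different probe sets are not on a common scale of abundance, so no order of levels between genes is given.

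**Figure D1:**
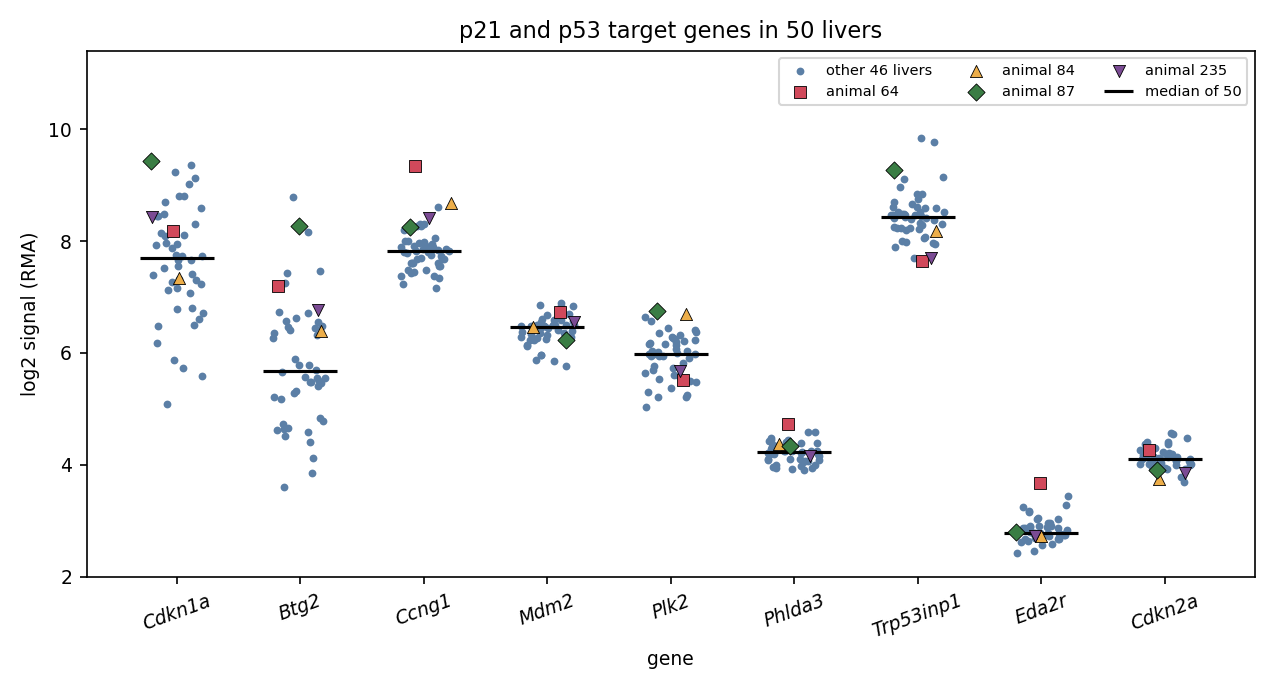
Signals of the 9 measured genes in 50 livers, on the log2 scale of the array. Each point is 1 liver, the horizontal bar is the median, and the 4 mice that stood apart have their own marks. The spread is widest for Btg2 (SD 1.13) and Cdkn1a (SD 1.0), and animal 64 is the highest for Ccng1, Phlda3 and Eda2r and the lowest for Trp53inp1.

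The members did not vary as a block. Each member was fitted in turn against all other named genes with limma, with Benjamini-Hochberg adjustment over all genes, and a pair was called where it passed an adjusted p under 0.05 with either gene as the predictor. Of 36 pairs 3 were called, all positive: Cdkn1a with Btg2, Cdkn1a with Trp53inp1, and Ccng1 with Eda2r. Over all 36 pairs 19 correlations were positive and 17 negative, with a median Pearson r of 0.018 and a range from -0.328 to 0.591. Among all pairs of genes at or above the median level, the median r was 0.0097 and the middle 90% lay between -0.412 and 0.467. An unadjusted permutation p under 0.05 was seen in 6 of the 36 pairs. Over all genes, 9.9% (with Plk2) to 33.8% (with Ccng1) had an unadjusted limma p under 0.05 with a member. Beside these shares the count of 6 is no result about the members. The share of all genes called with a member ran from 0% (Phlda3) to 21.5% (Ccng1).

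Cdkn1a and Btg2 tended to be high in the same mice. Animal 60 had the lowest signal of both, and animal 257 had 9.24 for Cdkn1a and the highest Btg2. Some mice went the other way. Animal 96 had 8.16 for Btg2 with Cdkn1a below its median, at 7.12. Animals 91 and 24 had 8.81 and 8.45 for Cdkn1a with Btg2 below its median, at 5.22 and 4.65. Pearson's r was 0.591 (permutation p = 3e-05) and Spearman's rho 0.563 (permutation p = 8e-05), and Btg2 rose by 0.67 log2 units (SE 0.13) for each log2 unit of Cdkn1a. The larger of the 2 adjusted p-values of the limma fits was 0.00345. The correlation was 0.557 without the 2 mice with the most extreme Cdkn1a and 0.550 without the 4 mice that stood apart. In the 4 stretches of animal numbers it was 0.793, 0.535, 0.479 and 0.653.

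Cdkn1a and Trp53inp1 were related to a like degree. Animal 60 had 7.70 for Trp53inp1, near its lowest value, and animals 91 and 257, its highest 2 mice, had 8.81 and 9.24 for Cdkn1a. Pearson's r was 0.588 (permutation p = 1e-05, the smallest that 100000 permutations can give) and rho was 0.528 (permutation p = 8e-05). Trp53inp1 rose by 0.26 log2 units (SE 0.05) for each log2 unit of Cdkn1a, with a larger adjusted p of 0.00434 in limma. Without the 2 farthest mice r was 0.531, and without the mice that stood apart it was 0.666. Within the stretches it was 0.646, 0.589, 0.490 and 0.762. On ranks the adjusted p was 0.145, and the pair was no longer called. Animals 64 and 235, the lowest for Trp53inp1, had Cdkn1a signals above the median, at 8.18 and 8.43.

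The call of Ccng1 with Eda2r rested on a single liver. Over the 50 mice r was 0.512 (permutation p = 0.00042) and rho 0.437 (permutation p = 0.00175), with a larger adjusted p of 0.0249 in limma. Without the 2 mice with the most extreme Ccng1 r was 0.372. Animal 64 was the highest mouse for both genes, and without it r was 0.320 and the limma adjusted p 0.745. Without all 4 mice that stood apart r was 0.427 (adjusted p 0.470), and on ranks the adjusted p was 0.524. Within the stretches r was 0.863, 0.528, 0.338 and 0.145. Since most Eda2r values lay near background, the low signal limits this pair as well.

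Among the other pairs, Btg2 and Plk2 had an r of 0.335 (permutation p = 0.0183; rho 0.310, permutation p = 0.0298), with an adjusted p of 0.350 in limma. Btg2 and Trp53inp1 had an r of 0.353 (permutation p = 0.0118) and a rho of 0.255 (permutation p = 0.074), with an adjusted p of 0.245. With the first principal component as a covariate the partial r of that pair was 0.532 and its adjusted p 0.0171. Without the covariate, the r of that pair was 0.145 when the 2 mice with the most extreme Btg2 were left out. It was 0.431 without the 4 mice that stood apart, and 0.404, 0.084, 0.192 and 0.717 within the stretches. Phlda3 and Trp53inp1 had an r of -0.328 (permutation p = 0.0204) and an adjusted p of 0.360. Btg2 and Ccng1 had an r of -0.080, which became -0.488 (limma adjusted p 0.0155) with the first component as a covariate. Without the covariate it was -0.407 when the 4 mice that stood apart were left out. None of these pairs was called in the fit without that covariate.

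No pair with Mdm2 was called. Its r with Cdkn1a was 0.173 (permutation p = 0.229, limma adjusted p 0.759), and by r with Cdkn1a it had rank 2983 of 22179 genes, where Btg2 had rank 7 and Trp53inp1 rank 8. The r of Cdkn1a was 0.122 with Plk2, 0.082 with Cdkn2a, -0.069 with Ccng1, -0.140 with Phlda3 and -0.154 with Eda2r, and none of these was called. Cdkn1a and Cdkn2a, the genes of the p21 and p16 inhibitors, had a limma adjusted p of 0.909 over these 50 livers.

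**Figure D2:**
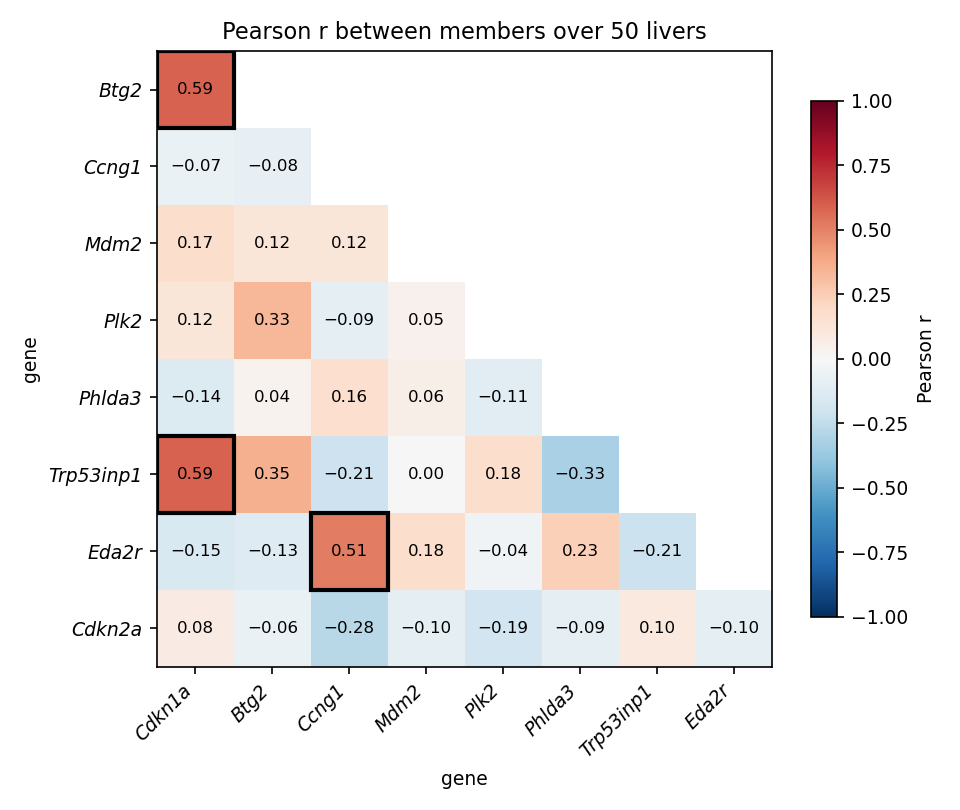
Pearson r over 50 livers for each of the 36 pairs of the 9 measured genes, printed in each cell and shown as colour from -1 (blue) to 1 (red). Boxes mark the 3 pairs that passed an adjusted p under 0.05 in limma in both directions of the fit, of which Ccng1 with Eda2r rests on animal 64.

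**Figure D3:**
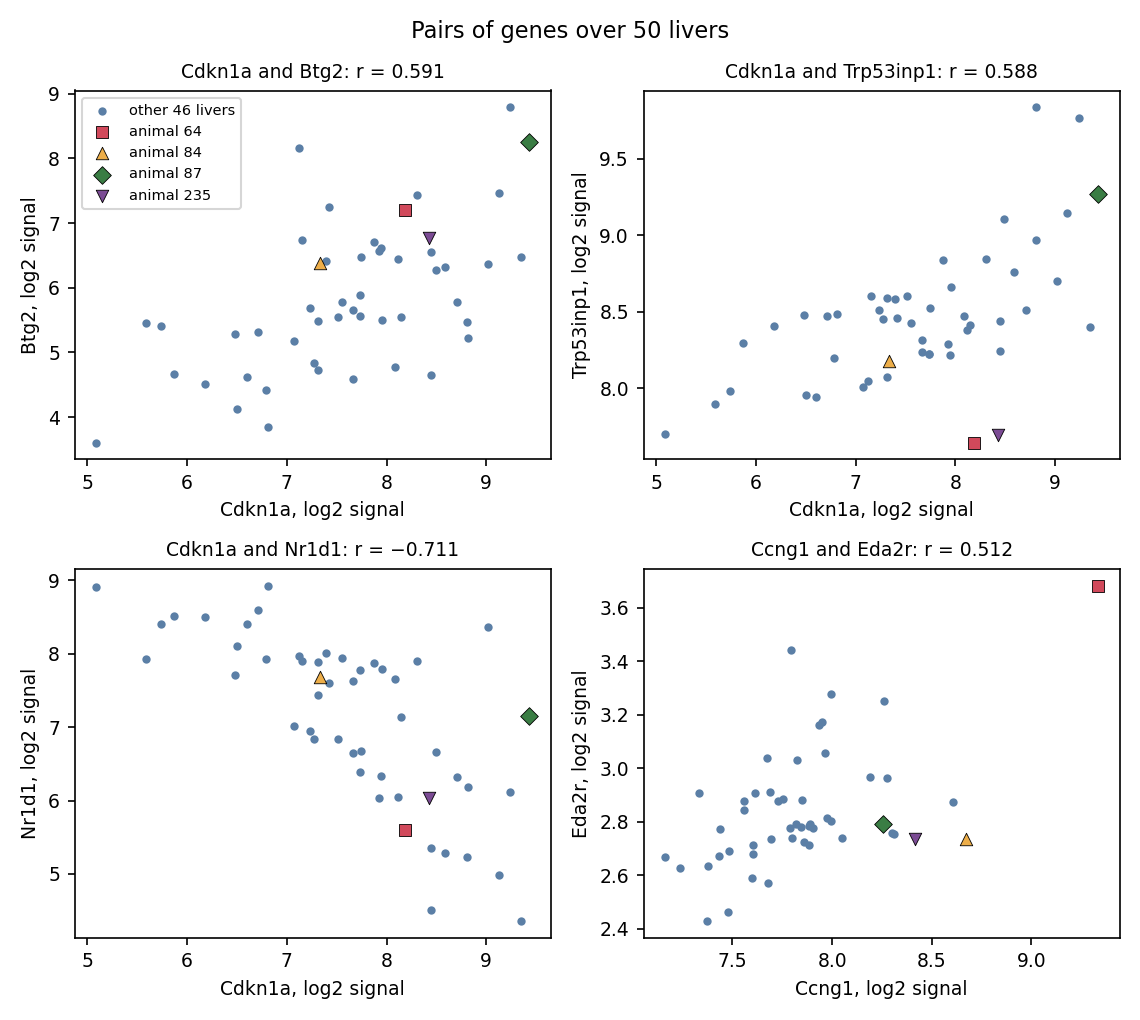
Log2 signals of 4 pairs of genes, with 1 point for each of 50 livers and separate marks for the 4 mice that stood apart. Btg2 (r = 0.591) and Trp53inp1 (r = 0.588) rise with Cdkn1a, Nr1d1 falls with it (r = -0.711), and the relation of Ccng1 with Eda2r (r = 0.512) leans on animal 64 at the upper right.

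Few genes of the array followed Cdkn1a. In the limma fit on Cdkn1a 114 of 22179 genes passed an adjusted p under 0.05 (0.514%), 43 with a positive slope (0.194%) and 71 with a negative slope (0.32%), and 2 of the other 8 measured members were among them. The counts moved with single mice. Without animal 60 they were 25 and 37, without animal 87 they were 24 and 41, and without animal 64 they were 68 and 112. The negative count was 46 without animal 114, and the positive count was 65 without animal 24. Btg2 and Trp53inp1 stayed called with Cdkn1a whichever mouse was left out, with r of 0.545 to 0.643 and 0.554 to 0.639, and a largest adjusted p of 0.0181 for each.

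Among other targets of p53 a single gene was called with Cdkn1a. Of 26 measured targets beyond the members it was Ddit4, with a positive slope, where 0.194% of all genes were called on that side. The median r of the 26 was -0.004 against 0.002 over all genes. At an unadjusted p under 0.05, 2 had a positive and 1 a negative slope, and 10.0% of all genes reached that p. Ddit4 encodes an inhibitor of mTORC1 that is also induced by glucocorticoids, fasting and low oxygen. Its r with Cdkn1a was 0.578 (permutation p = 1e-05) and its rho 0.567 (permutation p = 3e-05), and it rose by 0.61 log2 units (SE 0.12) per log2 unit of Cdkn1a, with an adjusted p of 0.00451 in limma. Without the 2 farthest mice its r was 0.545.

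The remaining targets had smaller correlations. Ppm1d, a phosphatase that switches off p53 signalling, had an r of 0.323 and a limma adjusted p of 0.357. Dcxr, a carbonyl reductase, had an r of -0.382 and an adjusted p of 0.214. These were the 2 targets besides Ddit4 with an unadjusted p under 0.05. Apaf1, a subunit of the apoptosome, had an r of 0.243, Tnfrsf10b, a death receptor, 0.182, and Bbc3, the gene of PUMA, 0.136. Aen had 0.065, Pmaip1, the gene of NOXA, 0.002, Pidd1 -0.020, Fas, another death receptor, -0.089, Ei24 -0.145 and Perp -0.207, and none of these was called. The sestrins, which restrain mTORC1, had r of -0.165 (Sesn1) and 0.166 (Sesn2), and Zmat3, an RNA-binding protein, had 0.005. The DNA repair genes Xpc (-0.009), Polk (0.028), Rrm2b (0.076) and Ercc5 (-0.090) were all within 0.1 of zero.

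Genes that act on p53 gave no call with Cdkn1a in limma. None of 15 measured genes passed, where 0.514% of all genes did. At this share a count of 0 in 15 is no result about them. Their median r was 0.064. Where 10.0% of all genes had an unadjusted p under 0.05, 1 of the 15 did. That gene was Hipk2, a kinase of p53, with an r of -0.307 and an adjusted p of 0.412. Mdm4, the partner of Mdm2, had 0.047, the kinases Atm and Atr had -0.059 and 0.225, and the deacetylase Sirt1 had 0.191. The rho of Hipk2 was -0.311 (permutation p = 0.029). Trp53 itself was not analysed here.

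No gene of the cell cycle or senescence lists was called with Cdkn1a. Of all genes 0.514% were called with it, and 10.0% had an unadjusted p under 0.05. At these shares a count of 0 in lists of this size is no result about them. By limma 0 of 16 cell cycle genes were called, with 1 at an unadjusted p under 0.05, and the closest was Rrm2, a subunit of ribonucleotide reductase, at r = 0.465 with an adjusted p of 0.063. Of 10 G1 cyclins, kinases and retinoblastoma genes 0 were called, and Ccnd1, the gene of cyclin D1 and the 1 with an unadjusted p under 0.05, had an r of -0.429 and an adjusted p of 0.104. The count was 0 of 10 for genes of the senescence-associated secretion and 0 of 5 for other inhibitors of cyclin-dependent kinases, with none of either list at an unadjusted p under 0.05.

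Clock genes gave the strongest relation to Cdkn1a. Nr1d1, which encodes the clock repressor REV-ERBalpha, ranged from 4.36 through a median of 7.52 to 8.93 and was lower in livers with more Cdkn1a. Its r was -0.711 and its rho -0.740 (permutation p = 1e-05 for both), and it fell by 0.82 log2 units (SE 0.11) per log2 unit of Cdkn1a. It stayed at -0.701 without the 2 farthest mice and at -0.732 without the mice that stood apart, and it was -0.954, -0.760, -0.580 and -0.737 in the stretches of animal numbers. Of 11 measured clock genes 5 were called with a negative slope: Nr1d1, Per3 (r = -0.599), Nr1d2 (r = -0.596), Dbp (r = -0.561) and Tef (r = -0.561). Arntl, which encodes the activator BMAL1, was called with a positive slope (r = 0.50, limma adjusted p 0.0356). Tef and Arntl were named after their values were seen. On ranks 3 clock genes were called with a negative slope.

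REV-ERBalpha is a repressor of Arntl, and the pair peak at opposite phases of the day. Arntl was higher, and the genes of REV-ERB and of the PAR bZIP factors Dbp and Tef were lower, in livers with more Cdkn1a. The hour at which each liver was taken could not be set against these values. The median r of the 11 clock genes was -0.113.

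Glucocorticoid-induced genes lay mostly on the positive side of Cdkn1a. Of 11 glucocorticoid-induced genes 3 were called, Cebpb, Per1 and Fkbp5, and 10 had a positive slope with an unadjusted p under 0.05, with a median r of 0.397. Cebpb, a transcription factor of liver stress and gluconeogenesis, had an r of 0.613 and an adjusted p of 0.00268. Per1, a clock gene with a glucocorticoid response element, had 0.571 (adjusted p 0.00572), and Fkbp5, a co-chaperone of the glucocorticoid receptor, had 0.519 (adjusted p 0.0223). Zbtb16 had 0.478 with a limma adjusted p of 0.051. The count was 2 without animal 60 or animal 87 and 5 without animal 24. It was also 5 without the 4 mice that stood apart.

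Of 13 genes of fasting and FoxO activity 2 were called with Cdkn1a. The median r of the 13 was 0.162, and 3 had a positive slope with an unadjusted p under 0.05. Igfbp1, a secreted binding protein of insulin-like growth factors that insulin represses, ranged from 5.93 through 10.21 to 11.88, with an r of 0.574 and a limma adjusted p of 0.00493. Foxo1, the transcription factor that insulin signalling keeps out of the nucleus, had an r of 0.565 (adjusted p 0.00755). Jun, a subunit of AP-1, was the only called gene of 15 immediate early genes, with an r of 0.576, a rho of 0.681 and an adjusted p of 0.00479. No hepatocyte, macrophage, endothelial, neutrophil or lymphocyte marker was called with Cdkn1a in limma, where 0.514% of all genes were. An unadjusted p under 0.05 was seen for 1 endothelial and 1 neutrophil marker, and for 10.0% of all genes. Of 5 adipocyte markers 1 was called, Plin4 (r = 0.526, limma adjusted p 0.0187), a lipid droplet protein that other tissues express too.

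Among genes at or above the median level, the highest r with Cdkn1a was that of St3gal5, a sialyltransferase that makes the ganglioside GM3 (r = 0.632, rho 0.683, limma adjusted p 0.00163). It was followed by Rasgef1b (0.623), Skil (0.616), Cebpb, Tmc7 (0.603), Baiap2l1 (0.595), Btg2, Trp53inp1, Ddit4, Jun, Dusp8 (0.575) and Igfbp1. Skil encodes a repressor of SMAD proteins and Dusp8 a phosphatase of stress-activated kinases. After Nr1d1, the lowest were Jade1 (-0.691), Dclk3 (-0.648), Sphk2 (-0.646), a sphingosine kinase, Rnf152 (-0.626), Slc66a2 (-0.619), Phka2 (-0.618), the regulatory subunit of liver phosphorylase kinase, and Ptch1 (-0.614), the Hedgehog receptor.

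In the limma fit on Btg2 2071 of 22179 genes passed (9.34%), 681 with a positive slope (3.07%) and 1390 with a negative slope (6.27%), and 1 of the other 8 members, Cdkn1a, was called. Of 15 immediate early genes 14 were called with a positive slope, with a median r of 0.576. Jun was the gene nearest to Btg2 (r = 0.831, rho 0.783), followed by Slc41a3 (0.770), a magnesium transporter, and Mt2 (0.753), a metallothionein induced by glucocorticoids and metals. The nuclear phosphatase gene Dusp1 (0.725) and the transcription factor genes Egr1 (0.681) and Klf6 (0.606) also rose with Btg2.

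Of 11 glucocorticoid-induced genes 8 were called with Btg2, with a median r of 0.521. Acute phase genes gave 5 calls of 11, among them Lcn2 (r = 0.572), Apcs (0.548) and Hp (0.496). Some markers of other cells moved with Btg2 too. Called with a positive slope were 4 of 7 endothelial genes, 5 of 10 neutrophil genes and 2 of 9 stellate cell and fibroblast genes. The last 2 were the collagen genes Col1a1 and Col1a2, whereas Lrat of the same list had an r of -0.351 and was not called. None of 8 macrophage, 7 T and NK cell, 5 B cell or 5 cholangiocyte markers was called. An unadjusted p under 0.05 was seen for 2 macrophage markers and 1 cholangiocyte marker, and for 21.9% of all genes. With 9.34% of all genes called, a count of 0 in lists of this size is no result about them. The mean level of the endothelial list ranged from 6.58 to 8.85 over the mice and that of the neutrophil list from 3.06 to 4.96. Btg2 also followed the first principal component (r = 0.484, permutation p = 0.00054; rho 0.704, permutation p = 1e-05), and with that component as a covariate 9 immediate early genes were called. The part of these cells and of the component in the relations of Btg2 was not tested.

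The p53 targets went both ways with Btg2. Of 26, 3 were called with a positive slope, Ddit4 (r = 0.698), Ppm1d (0.508) and Apaf1 (0.406), and 4 with a negative slope, Dcxr (-0.517), Ei24 (-0.514), Perp (-0.484) and Fas (-0.413). The background of all genes is 3.07% for the positive and 6.27% for the negative side. The fits on Cdkn1a and on Btg2 use the same livers, so they are given side by side and not compared. Igfbp1 had an r of 0.743 with Btg2 and 0.574 with Cdkn1a. Nr1d1 had -0.354 with Btg2, where its limma adjusted p was 0.0765, and -0.711 with Cdkn1a.

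Trp53inp1 was called with 95 genes (0.428%), 73 of them with a positive slope (0.329%), and Cdkn1a was the 1 member among them. Of 11 glucocorticoid-induced genes 5 were called: Cebpb (r = 0.601), Zbtb16 (0.583), Errfi1 (0.571), Fkbp5 (0.568) and Tat (0.496). The count was 3 without the 4 mice that stood apart and 0 on ranks. Hepatocyte markers also lay on the positive side of Trp53inp1: their median r was 0.313, and 5 of 10 had an unadjusted p under 0.05, of which 1 was called, Tat, which is in both lists. Animals 64 and 235, the lowest for Trp53inp1, had the 2 lowest means of the hepatocyte list, 10.77 and 11.28. The part of hepatocyte content in the relations of Trp53inp1 was not tested. Of 13 fasting and FoxO genes 2 were called, Foxo1 (r = 0.647, limma adjusted p 0.000479) and Igfbp1 (r = 0.527). On ranks no gene of the array was called with Trp53inp1 in limma, and 1830 genes had an unadjusted p under 0.05. The nearest genes were Rhobtb1 (r = 0.733), Gm13363 (0.715) and Plin4 (0.674). Of 26 further p53 targets, Ddit4 alone was called with it (r = 0.529, limma adjusted p 0.0182), and Nr1d1 was not (r = -0.241, adjusted p 0.461).

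Ccng1 was called with 4760 genes (21.5%), 2780 with a positive slope (12.5%) and 1980 with a negative slope (8.93%), and Eda2r was the 1 of 8 other members among them, a share no larger than that of all genes. All 16 measured cell cycle genes were called with a positive slope, 7 of 10 hepatocyte markers with a negative slope, and 8 of 26 further p53 targets with a positive and 2 with a negative slope. Of 15 genes that act on p53, 7 were called with a positive slope, among them Atr (r = 0.700) and Usp7 (0.623). The calls of the cell cycle genes, and most of those of the hepatocyte markers, rested on animal 64. Without it 0 cell cycle genes, 2 hepatocyte markers and 896 genes of the array were called. The count over the array was 100 without the 4 mice that stood apart and 374 on ranks. Without those 4 mice Atr had an r of 0.391 and Usp7 of 0.155, and the proliferation marker Mki67 had an r of 0.058 with Ccng1 in place of 0.432.

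Animal 64 was unlike the other livers in several lists. The mean level of the cell cycle list was 8.34 in it, against 6.10 in animal 235, the next highest, and a median of 3.88. The mean of its hepatocyte markers was the lowest of the 50 at 10.77, and the mean of its 2 measured erythroid markers was the highest at 9.08, against a median of 3.53. It also had the highest Ccng1, Phlda3 and Eda2r. The part of these cell types in the levels of animal 64 was not tested. The genes nearest to Ccng1 were Exoc4 (r = 0.788), a subunit of the exocyst, Vrk1 (0.760), a kinase, and Cnot6 (0.759), a deadenylase, and without the 4 mice that stood apart they had r of 0.676, 0.565 and 0.546. In the 13 mice of the last stretch of animal numbers their r was -0.023, 0.209 and 0.180.

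Eda2r was called with 463 genes (2.09%), 420 of them with a positive slope (1.89%), and Ccng1 was the 1 member among them. Of 16 cell cycle genes 6 were called. Without animal 64 no gene of the array was called with Eda2r in limma, and on ranks over all mice 1 was. The number of cell cycle genes called was 0 without animal 64, 3 without animal 73, 12 without animal 171 or animal 270, and 13 without animal 235. The count of all genes was 761 without animal 235 and 1025 without animal 270. Exoc4 was the nearest gene here too, with an r of 0.714, and 0.652 without the mice that stood apart.

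Plk2 was called with 62 genes (0.28%), 59 of them with a positive slope (0.266%), and with no other member. On ranks 28 genes were called, and without the 4 mice that stood apart 164. The nearest were Mmrn2 (r = 0.703), Kdr (0.686) and Gimap6 (0.683). Mmrn2 is a matrix protein of vessel walls and Kdr the receptor for vascular endothelial growth factor. Of 7 endothelial markers 2 were called, Kdr and Pecam1 (r = 0.591), and 4 were called without animal 235. The 2 highest mice for Plk2 were animals 87 and 84, and the mean endothelial level was the highest of the 50 in animal 84, at 8.85. In animal 87 that level was 8.57, rank 5 from the highest. In animal 235 it was 8.64, rank 3, although Plk2 there was 5.68, rank 14 from the lowest. None of the markers of the other cell types was called with Plk2. How far the number of endothelial cells contributed was not tested.

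Mdm2 was called with 29 genes (0.131%), and on ranks with 1. None of the other 8 members or of 26 further p53 targets was called with it in limma. At an unadjusted p under 0.05, 3 targets had a positive and 3 a negative slope, and 2671 of 22179 genes reached that p. The genes with the highest r were Clic4 (r = 0.637), an intracellular chloride channel protein, Ubap2l (0.599) and M6pr (0.592). In limma Phlda3 was called with 0 genes (0%), with 2490 at an unadjusted p under 0.05, and on ranks also with 0. Its nearest gene was Kdm4c (r = 0.570, limma adjusted p 0.136). Cdkn2a was called with 1 gene (0.00451%) and on ranks with 0, and that gene was not among those at or above the median level. Its nearest gene at that level was Npffr1 (r = 0.545, limma adjusted p 0.128).

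**Figure D4:**
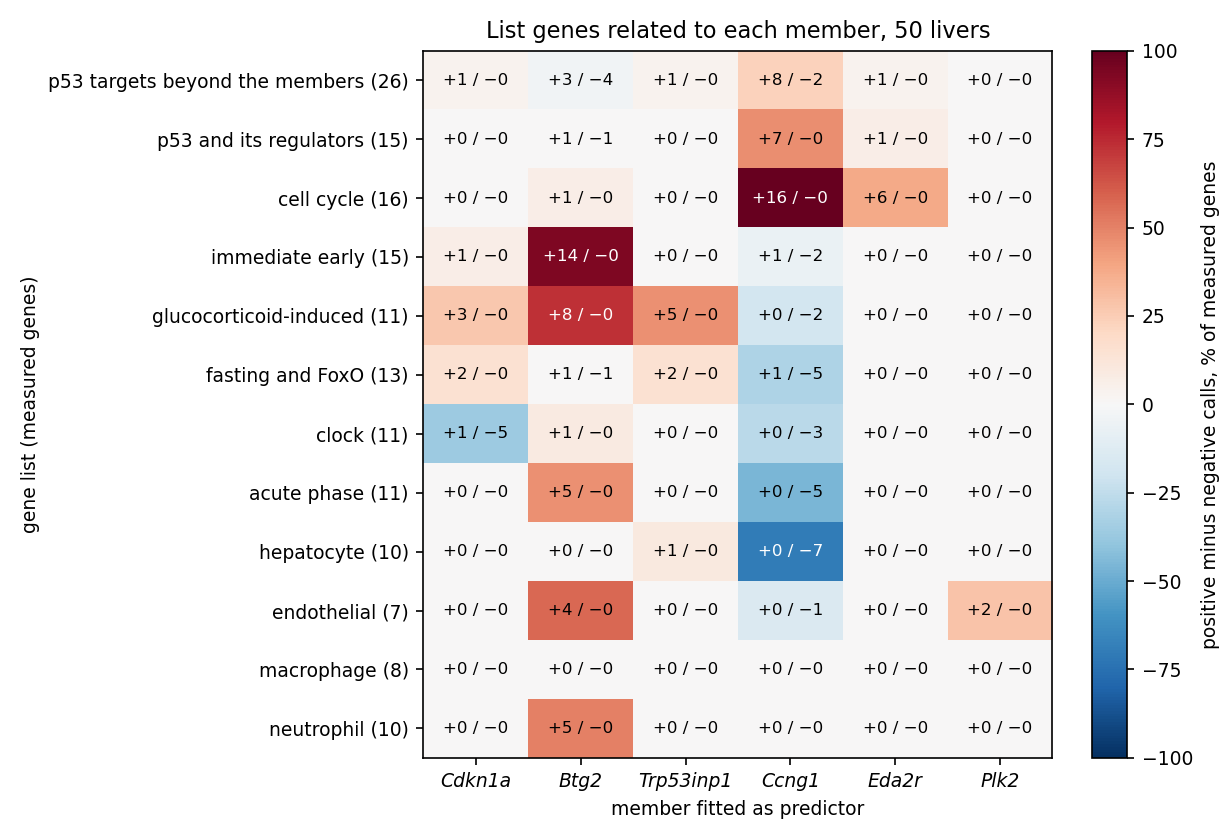
Counts of genes of 12 lists that passed an adjusted p under 0.05 in limma with a positive or a negative slope on each of 6 members over 50 livers. Rows give the measured genes of each list in brackets, and colour is the positive minus the negative calls as a percentage of those genes. Cdkn1a has 5 of 11 clock genes on its negative side, Btg2 14 of 15 immediate early genes on its positive side, and the 16 of 16 cell cycle genes of Ccng1 become 0 without animal 64.

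The animal number was the one label that differed between the mice. In limma 780 of 22180 genes were called with it (3.52%), and 0 of 9 members, with 0 at an unadjusted p under 0.05 in the fit on log2 values and in that on ranks. At that share of all genes a count of 0 in 9 is no result about the members. The adjusted p of the members ran from 0.408 for Ccng1 to 1.0 for Trp53inp1. With the animal number as a covariate, Cdkn1a had a partial r of 0.599 with Btg2 and 0.589 with Trp53inp1.

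Genes beside the members on their chromosomes were looked at in gene order, 10 on either side, for a sign of regional covariation in this backcross. None of the 20 neighbours of Cdkn1a, Btg2, Mdm2, Plk2, Phlda3, Eda2r or Cdkn2a was called with its member in limma. The share of all genes called was 9.34% for Btg2, 2.09% for Eda2r and 0.514% for Cdkn1a, and lower for the rest. At these shares a count of 0 in 20 is no result about regional covariation. Of 20 neighbours of Trp53inp1 on chromosome 4, Gm11827, the adjacent gene, was called (r = 0.664, limma adjusted p 0.00033). Whether the 2 transcripts overlap was not tested. Of 20 neighbours of Ccng1 on chromosome 11, 6 were called, where 21.5% of all genes were called: Rars, Mat2b, Hmmr, Nudcd2 and Pttg1 with a positive slope, and C1qtnf2 with a negative slope. Hmmr and Pttg1 are genes of mitosis.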

How the data were processed

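Total RNA of 50 livers (100 ng each) was labelled and hybridised to 1 array per liver, per the labels' protocols. The deposited values are log2 signals. RMA and Affymetrix Expression Console 1.4.1 are named for them, per the submitters' processing notes, with no filter or build given in the sources used here. The medians of the arrays lay between 3.27 and 3.34, and the number of livers limits the precision, since no repeat array measures technical error. Of 41345 probe sets 23521 carried 1 symbol, 1814 several and 16010 none, which left 22180 named genes, each taken at the probe set with the highest median. RefSeq gene order (GRCm38.p6) gave the neighbours, and no coordinates are printed.

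The labels gave 1 group, so genes were related over mice with limma 3.58.1 (R 4.3.3, lmFit and eBayes with trend), two-sided, with Benjamini-Hochberg adjustment over all named genes. Permutation p-values used 100000 permutations (Python 3.11.15, SciPy 1.17.1) and are not adjusted; 36 pairs were computed. Whether the livers share litters or cages is not given, so p-values measure the spread between these samples. A member was said to fall into separate clusters only by a mixture of 2 normal distributions. These had to lie at least 4 SD and 0.5 log2 units apart, with 5 or more mice in each. The mixture also had to improve the Bayesian information criterion by over 10. On simulated data for the Cdkn1a fit, with 200 of 22179 genes changed in 3 runs, 9% of changed genes were recovered at a correlation of 0.4, 89% at 0.6 and 100% at 0.8.

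The genes and lists were chosen with earlier results of these data known. Named were the members, both p53 lists, the 12 highest and 8 lowest genes by r with Cdkn1a and the 3 nearest genes of each other member, all at or above the median level of 3.61, up to 4 genes of each other list by r with Cdkn1a, and called neighbours. Genes named from fits on other members beyond that rule were chosen after their values were seen. Alternatives were leaving out mice, averaging probe sets, centring arrays, a level filter, ranks, and covariates (the first component, the animal number and 4 stretches of it). Bax, Trp53 and Gdf15, and Gadd45a and Ddb2, which lie on probe sets with several symbols, were not analysed here.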

Additional observations from a re-analysis of the deposited data

How the results depend on the processing

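Of 316 values of the pairs under the alternatives 310 kept their side of the threshold, 4 lost it and 2 gained it. Only 3 of 36 pairs were called in the main fit. Most of the 310 were therefore pairs that stayed uncalled, and the 4 losses fell on those 3 pairs. All 71 values of the members' SDs under the alternatives differed from the main SD by less than that SD. This bound is wide: the SD of Ccng1 stayed within it while falling from 0.40 to 0.27 without the 14 mice that stood apart or lay far above. The count of further p53 targets called with Cdkn1a was 1 positive and 0 negative, and that of members called with the animal number 0, in every setting run. The called pairs were 1 on ranks, and with the first component as a covariate 1 negative pair was called. Genes called with Cdkn1a with a positive slope numbered 77 without the mice that stood apart, 75 with the first component as a covariate, 75 with the level filter and 22 on ranks, and those with a negative slope 129 with the level filter, 115 with the stretches as a factor and 45 on ranks. Leaving out 1 mouse at a time gave 24 to 68 positive and 37 to 112 negative calls.

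The settings for the list counts, and leaving out 1 mouse at a time, were chosen after seeing the data. Without the 4 mice that stood apart, and also without all 14 mice that stood apart or lay far above on a cell type list, the calls were 5 glucocorticoid-induced genes with Cdkn1a, 3 with Trp53inp1, 0 cell cycle genes with Ccng1 and with Eda2r, and 0 hepatocyte genes with Ccng1. On ranks they were 3 clock genes with Cdkn1a, 0 glucocorticoid-induced genes with Trp53inp1, 0 cell cycle genes with Ccng1 and with Eda2r, and 0 hepatocyte genes with Ccng1. With the first component as a covariate they were 6 glucocorticoid-induced genes with Cdkn1a, 9 immediate early genes with Btg2, 0 cell cycle and 2 hepatocyte genes with Ccng1, and 3 cell cycle genes with Eda2r. The level filter gave 5 glucocorticoid-induced genes with Cdkn1a, and the stretches gave 3 cell cycle genes with Eda2r. With the level filter Eda2r is left out and gives no value. Leaving out 1 mouse at a time gave 2 to 5 glucocorticoid-induced genes with Cdkn1a, 0 to 16 cell cycle and 2 to 7 hepatocyte genes with Ccng1, 0 to 13 cell cycle genes with Eda2r and 2 to 4 endothelial genes with Plk2. Beyond the mice left out or the genes dropped, the cause was not tested. No paired analysis was possible because the labels give a single group.

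The design relates genes over mice and sets no groups against each other. In the simulated fit on Cdkn1a 9% of genes with a correlation of 0.4 were recovered, so a missing call does not show that 2 genes were unrelated. Levels near background, above all those of Eda2r, limit what that gene can show.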
